A study of Rattus norvegicus with 8 samples.

Results

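The transcription factors that give the gonad and its granulosa cells their identity were examined in rat ovary. Of 9 such genes, chosen by name, 8 had a probe on the array under their own gene name: Wt1, Gata4, Gata6, Foxl2, Lhx9, Emx2, Sox4 and Dmrt1. Sox9 was not analysed here. The 8 genes were read by 12 probes, out of 26214 names and 30367 probes on the array.

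Ovarian RNA of immature female rats was hybridised to 1-colour Agilent arrays, with 4 arrays labelled control and 4 labelled PMSG. PMSG, pregnant mare serum gonadotropin, is a hormone preparation that acts mainly like follicle-stimulating hormone. Rats received 50 IU of it under the skin at 26 days of age, or 0.2 ml of the albumin phosphate buffer alone, and both groups were killed after 48 h, at 28 days. The titles of the control arrays themselves read "Reference without treatment" and name no buffer. The labels name no strain, and they do not say whether an array held 1 animal or a pool, so the p-values measure the spread between these arrays. All directions follow the sample titles, and PMSG and control arrays stand throughout for arrays labelled so. Genes of luteal cells and steroid synthesis ran against the direction generally known for PMSG, as given below with their values. Whether the titles are right was not tested, and were they exchanged every sign here would turn.

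Values are log2 signals minus the 75th percentile of each array, called levels here. That percentile lay between 769 and 1103 signal units, and 80.8% to 84.6% of probes were well above background on each array. The labelled tissue was checked with markers: all 8 oocyte genes and 7 of 8 granulosa genes listed as markers were well above background on all 8 arrays, and the aromatase probe was so on 0 arrays. Against the usual direction, luteal markers were lower in arrays labelled PMSG, 6 of 6 past the threshold, with a summed signal (in units of each array's 75th percentile) of 14.8 to 32.7 against 151 to 172.

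As background, Gata4, Wt1, Emx2 and Lhx9 are among the genes needed for the early bipotential gonad to form, before it becomes ovary or testis. Foxl2 keeps granulosa cells female, whereas Sox9 and Dmrt1 drive and maintain the Sertoli cell fate of the testis. GATA4 and GATA6 are zinc finger proteins that act on the promoters of many steroid and peptide hormone genes in granulosa and theca cells.

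Several of these genes were read by more than 1 probe, and not every probe of a gene passed the test. The 4 sequences that follow show what was read for Lhx9, of whose 2 probes 1 passed, and for the dimmer probes of Wt1 and Foxl2, each 60 bases long. The Wt1 sequence reads in an open frame up to a stop triplet, in capitals, at its very end. The others each hold at least 1 frame with no stop triplet. Positions are on the build rn4, as in the array files.
Wt1 probe 3: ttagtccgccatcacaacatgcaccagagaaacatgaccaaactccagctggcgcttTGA
Foxl2 probe 2: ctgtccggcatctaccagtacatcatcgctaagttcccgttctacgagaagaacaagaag
Lhx9 probe 1: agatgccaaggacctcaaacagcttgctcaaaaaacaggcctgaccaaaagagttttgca
Lhx9 probe 2: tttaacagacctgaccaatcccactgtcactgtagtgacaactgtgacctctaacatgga

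Wt1, Sox4 and Emx2 were higher in arrays labelled PMSG, while Foxl2, Gata4 and Gata6 did not pass the test. With the brightest probe of each gene, 3 of 7 tested genes (42.9%) had a limma adjusted p under 0.05, all 3 higher. Over all 25303 tested probes 34.2% passed, 17.6% higher and 16.6% lower, so the share among these 7 genes lies near that of the array. The groups did not overlap for 3 of the 7 genes, against 36.6% of all tested probes. Counting every probe, 6 of 11 passed. Centring arrays on their median instead gave 2914 probes higher and 5534 lower, against 4452 and 4206. The median difference over the 7 genes was 0.33 on the log2 scale, and over all tested probes it was 0.11, or -0.05 with median centring.

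**Figure D1:**
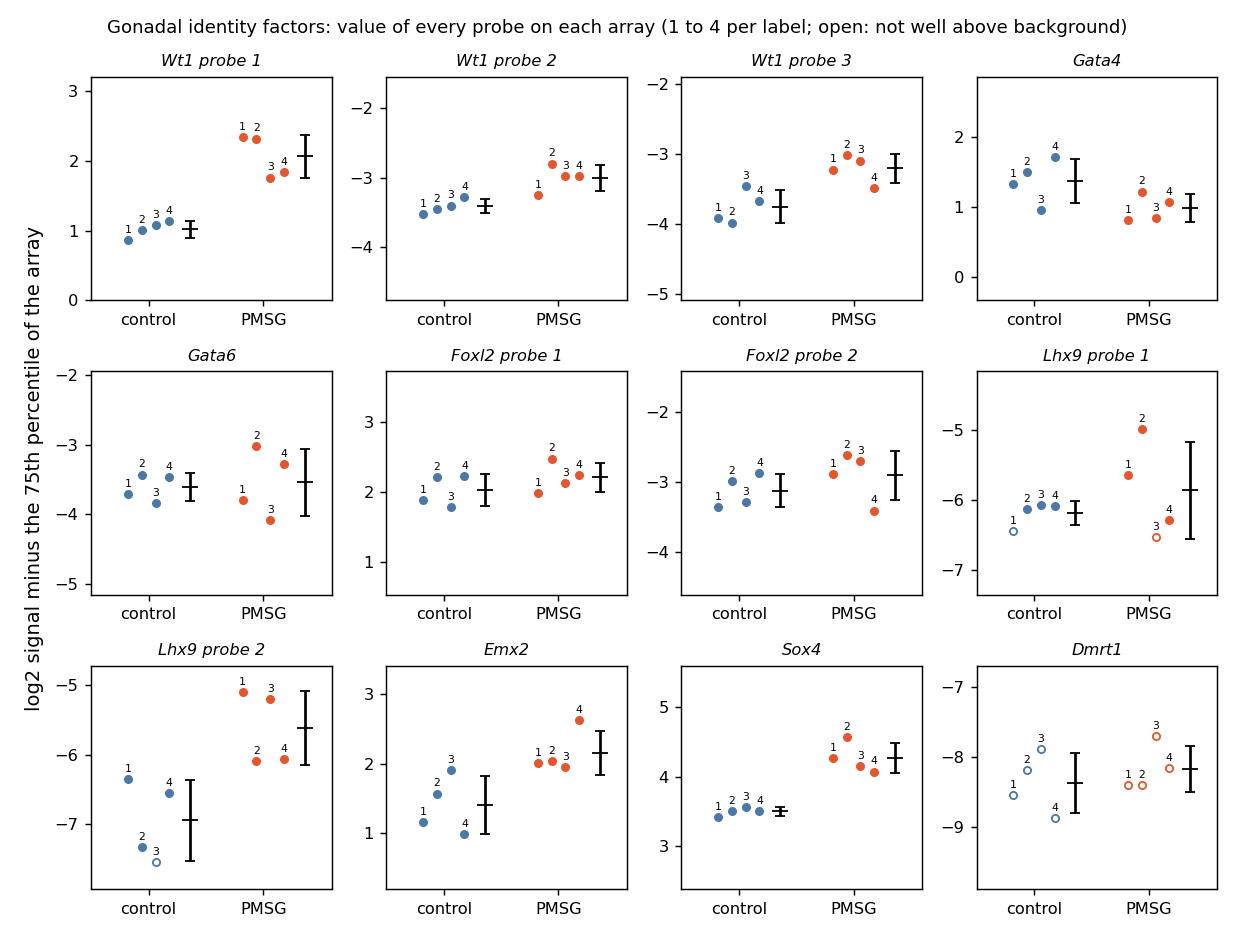
Level of each probe (log2 signal minus the array's 75th percentile, every panel spanning the same height) on 4 control and 4 PMSG arrays, numbered 1 to 4, with mean and SD. Open points are arrays on which the probe was not well above background. The groups do not overlap for Wt1 probes 1 and 2, Lhx9 probe 2, Emx2 and Sox4.

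Wt1 encodes a zinc finger protein of the urogenital ridge that stays active in granulosa cells of small follicles and in the ovarian surface. Its brightest probe, probe 1 (chromosome 3, 90577175 to 90577234), read 0.86, 1.01, 1.08 and 1.14 on control arrays 1 to 4. On PMSG arrays 1 to 4 it read 2.34, 2.32, 1.76 and 1.84. The lowest PMSG array thus stood above the highest control array, and PMSG arrays 1 and 2 stood above arrays 3 and 4. The means were 1.02 ± 0.12 (SD, n = 4) and 2.06 ± 0.30 (SD, n = 4). The log2 difference was 1.04 (SE 0.16, 95% interval 0.68 to 1.41, limma adjusted p = 0.00173), which is 2.06-fold. A larger difference in either direction was found for 13.0% of tested probes.

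The other Wt1 probes were also higher, by smaller amounts. Probe 2 (90576101 to 90576160) averaged -3.41 ± 0.10 (SD, n = 4) in control and -3.0 ± 0.19 (SD, n = 4) in PMSG arrays, 0.41 apart (limma adjusted p = 0.0292). Probe 3 (90575952 to 90576011), whose sequence is printed above, averaged -3.76 ± 0.24 (SD, n = 4) and -3.20 ± 0.21 (SD, n = 4), 0.56 apart (limma adjusted p = 0.0246). On arrays 1 to 4, probe 2 read -3.52, -3.45, -3.40 and -3.28 in control and -3.25, -2.80, -2.98 and -2.98 in PMSG arrays, with no overlap. For probe 3 the groups overlapped, as PMSG array 4 (-3.48) lay just below control array 3 (-3.46). All 3 Wt1 probes therefore passed in the same direction, and the sense of the change does not rest on 1 probe. The mean of the 3 probes differed by 0.67 (limma adjusted p = 0.0031).

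The size of the Wt1 change differed between probes, but not past adjustment. Within each array, probe 1 minus probe 2 was 4.43 ± 0.05 (SD, n = 4) in control and 5.07 ± 0.38 (SD, n = 4) in PMSG arrays, a shift of 0.64 (exact two-sided permutation p = 0.0286, 0.143 adjusted over the 5 probe comparisons made). Probe 1 minus probe 3 shifted by 0.49 (exact permutation p = 0.0571, adjusted 0.143), and probe 2 minus probe 3 by -0.15 (exact permutation p = 0.4, adjusted 0.5). On the build rn4 the start of probe 1 lies 1223 bases beyond that of probe 3 on the chromosome, and that of probe 2 lies 149 bases beyond it. The smallest p that 4 arrays against 4 can give is 0.0286, so several of the 5 comparisons had to reach it for any to pass adjustment. These probe comparisons were added after the values had been seen.

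Sox4 encodes a factor of the SoxC group, with a DNA-binding HMG box, that is active in many developing tissues. Its probe (chromosome 17, 42177493 to 42177552) read 3.42, 3.51, 3.56 and 3.51 on control arrays 1 to 4. It read 4.26, 4.56, 4.15 and 4.07 on PMSG arrays 1 to 4. Control arrays were very close together, with an SD of 0.06, and every PMSG array lay above them. The log2 difference was 0.76 (SE 0.12, 95% interval 0.48 to 1.04, limma adjusted p = 0.00211), which is 1.69-fold.

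Emx2, a homeobox gene of the urogenital epithelium, had a less secure difference. Its probe (chromosome 1, 266011069 to 266011128) read 1.16, 1.57, 1.91 and 0.99 on control arrays 1 to 4. On PMSG arrays 1 to 4 it read 2.01, 2.04, 1.95 and 2.62. The groups came within 0.04 of each other, control array 3 at 1.91 and PMSG array 3 at 1.95, and PMSG array 4 stood apart at the top. The means were 1.41 ± 0.42 (SD, n = 4) and 2.15 ± 0.32 (SD, n = 4). The log2 difference was 0.74 (SE 0.24, 95% interval 0.20 to 1.29, limma adjusted p = 0.0416). This call was lost when any of 7 of the 8 arrays was left out, with adjusted p-values up to 0.103, and was kept only without control array 3. It was also lost with median centring (log2 difference 0.58, limma adjusted p = 0.132).

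Lhx9, a LIM homeobox gene of the gonadal ridge, was near the limit of detection, and 1 of its 2 probes passed. Probe 1 (chromosome 13, 52144830 to 52144889) was well above background on 3 control and 3 PMSG arrays. It read -6.45, -6.13, -6.08 and -6.09 on control arrays and -5.65, -4.99, -6.53 and -6.29 on PMSG arrays 1 to 4. Its PMSG arrays lay on both sides of the control arrays, and the log2 difference of 0.33 did not pass (SE 0.32, 95% interval -0.40 to 1.05, limma adjusted p = 0.439). Probe 2 (52143549 to 52143608) was well above background on 3 control and all 4 PMSG arrays. It read -6.35, -7.33, -7.54 and -6.55 on control arrays and -5.11, -6.09, -5.20 and -6.06 on PMSG arrays 1 to 4. Here the groups did not overlap and differed by 1.33 on the log2 scale (SE 0.35, limma adjusted p = 0.0193). Only 10 of the 16 spots of probe 2 over the arrays were well above background, however. Control arrays 2 and 3 read below the lowest spot of any probe called well above background on them (-6.51 and -6.46). The control mean of probe 2 thus rests partly on background, and the size of its difference is uncertain.

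Both Lhx9 probes had a higher mean in PMSG arrays. The within-array difference between them shifted by -1.0 between the groups, which was not beyond the spread of the arrays (exact permutation p = 0.143, adjusted 0.238). With the mean of both probes in place of the brighter one, Lhx9 was higher by 0.83 (limma adjusted p = 0.0132), which brings the count of differing genes to 4. That mean shares the limit of probe 2, whose control values lay partly at background. Under quantile normalization the difference of probe 1 was 0.00. Unscaled signals ran from 8.33 to 32.4 for probe 1 and from 2.36 to 31.3 for probe 2.

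**Figure D2:**
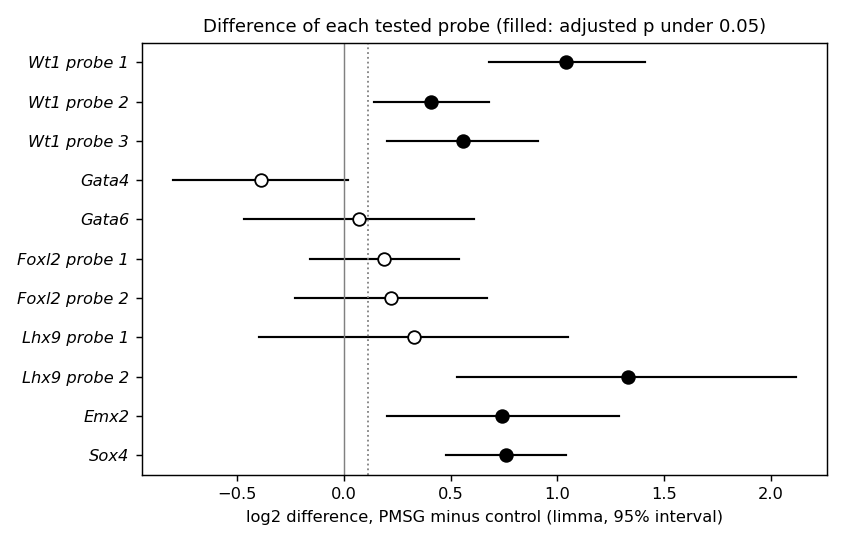
Log2 difference (PMSG minus control) of each of the 11 tested probes with its 95% interval from limma. Filled points have an adjusted p under 0.05, and the dotted line is the median over all tested probes, 0.11. Intervals of Gata4, Gata6, both Foxl2 probes and Lhx9 probe 1 include 0.

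Foxl2 encodes the forkhead protein that maintains granulosa cell identity after birth. Its brightest probe, probe 1 (chromosome 8, 103806426 to 103806485), read 1.88, 2.21, 1.78 and 2.23 on control arrays 1 to 4. On PMSG arrays 1 to 4 it read 1.99, 2.48, 2.13 and 2.24. The groups overlapped, and the log2 difference of 0.19 did not pass (SE 0.15, limma adjusted p = 0.362). Its 95% interval ran from -0.16 to 0.54. Foxl2 probe 2 (103804282 to 103804341) was dimmer, at -3.13 ± 0.23 (SD, n = 4) and -2.90 ± 0.35 (SD, n = 4), with a log2 difference of 0.22 (limma adjusted p = 0.401). It read -3.36, -2.99, -3.29 and -2.87 on control arrays and -2.89, -2.62, -2.70 and -3.41 on PMSG arrays 1 to 4, so that PMSG array 4 was the lowest of all 8. The probes start 2144 bases apart, and their within-array difference shifted by only -0.04 (exact permutation p = 0.914, adjusted 0.914).

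Gata4, the main GATA factor of granulosa cells, was the only tested gene of the set whose level was lower in arrays labelled PMSG, without passing the test. Its probe (chromosome 15, 42473004 to 42473063), printed in 10 spots per array, read 1.33, 1.5, 0.96 and 1.71 on control arrays 1 to 4. It read 0.81, 1.22, 0.84 and 1.07 on PMSG arrays 1 to 4. Control array 3 lay among the PMSG arrays, and the other 3 control arrays lay above all of them. The log2 difference was -0.39 (SE 0.18, 95% interval -0.80 to 0.02, limma adjusted p = 0.123). Without control array 3 it was -0.53 and passed (limma adjusted p = 0.0396), in a range of adjusted p-values up to 0.275 over the other settings tried.

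Gata6, which overlaps with Gata4 in granulosa, theca and luteal cells, showed no shift that could be told from the spread. Its probe (chromosome 18, 2534368 to 2534427) read -3.71, -3.43, -3.84 and -3.46 on control arrays and -3.79, -3.02, -4.08 and -3.28 on PMSG arrays 1 to 4. The PMSG arrays spanned the whole control range, which left a difference of 0.07 (SE 0.23, 95% interval -0.47 to 0.61, limma adjusted p = 0.837). Its sign turned to -0.15 under quantile normalization and -0.10 with median centring. The probe of Dmrt1, the testis-maintaining factor (chromosome 1, 229036822 to 229036881), reached that call on none (0 of 8 arrays) at signals of 2.33 to 5.51 and was not tested.

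To ask whether these genes changed unequally, the difference between brightest probes was taken within each array. Gata4 minus Gata6 was 4.98 ± 0.16 (SD, n = 4) in control and 4.53 ± 0.30 (SD, n = 4) in PMSG arrays, a shift of -0.46 (exact two-sided permutation p = 0.0571). Wt1 minus Lhx9 probe 1, which was not well above background on control array 1 and PMSG array 3, shifted by 0.72 (exact permutation p = 0.0571). With Lhx9 probe 2 the sign turned, to -0.28 (exact permutation p = 0.543), so no order of the Wt1 and Lhx9 changes was shown. Over the 2 pairs both adjusted values were 0.0571 as well, and with normexp background correction both shifts reached 0.0286. Pairs with Sox9 or Dmrt1 could not be compared.

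All 21 pairs of the 7 tested genes were then compared, a step added after the values had been seen. In 6 of the 21 pairs the groups did not overlap, each at the smallest possible exact permutation p of 0.0286. None of the 21 passed adjustment over them, where the lowest adjusted p was 0.100. Most of the 21 pairs had to reach that smallest p for any to pass, so this outcome says little about single pairs. The 6 pairs were Wt1 with Gata4, Gata6 and Foxl2 (shifts of 1.43, 0.98 and 0.86), Gata4 with Foxl2 and Sox4 (-0.58 and -1.15) and Foxl2 with Sox4 (-0.57). Gata4 minus Foxl2 was the tightest of these within the PMSG arrays, at -1.18, -1.26, -1.29 and -1.17, against -0.55, -0.71, -0.82 and -0.52 in the control arrays. Emx2 minus Sox4 shifted by -0.01 (exact permutation p = 0.943).

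Levels also moved between arrays of 1 label, on control array 3 beside markers of granulosa cells. In control array 3 Gata4, Gata6 and Foxl2 probe 1 each had their lowest control value. The mean level of the 7 granulosa markers was lowest there too, at 1.66 against 2.05 to 2.43 on the other control arrays. On PMSG arrays 1 to 4 that mean was 2.64, 2.51, 2.52 and 2.11. Among these arrays Gata4 (0.81) and Foxl2 probe 1 (1.99) were lowest on array 1, where the marker mean was highest. That mean was close to those of arrays 2 and 3, and not every marker was highest on array 1. The match of control array 3 was thus not seen in the PMSG arrays. Over the groups, 2 of the 7 granulosa markers were higher, 2 were lower and 3 did not pass, where 34.2% of all tested probes passed. Their summed signal was 122 to 217 in control and 118 to 153 in PMSG arrays. In whole ovary RNA, fewer cells of a type and less RNA per cell cannot be told apart.

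Within each label the array with the highest Emx2 level also had the highest epithelial markers, but the other arrays did not follow that order. The mean level of 10 markers of surface and oviduct epithelium was 0.26, 0.00, 0.57 and 0.12 on control arrays 1 to 4, with its maximum, like that of Emx2, on array 3. It was 0.64, 0.86, 0.97 and 1.21 on PMSG arrays 1 to 4, with its maximum, again like Emx2, on array 4. Control array 2, where the marker mean was lowest, had an Emx2 level of 1.57, above those of control arrays 1 and 4. PMSG array 3 had the lowest Emx2 level of its label, 1.95, beside a marker mean of 0.97. Wt1 probe 1 was higher on PMSG arrays 1 and 2 (2.34 and 2.32), where the marker mean was lower, than on arrays 3 and 4 (1.76 and 1.84). Of these 10 marker genes 4 were higher (Upk3b, Upk1b, Krt18 and Muc1), 0 were lower and 6 did not pass, where 34.2% of all tested probes passed. Their summed signal was 30.0 to 39.0 in control and 38.0 to 57.2 in PMSG arrays. The part of epithelium in the Emx2 and Wt1 differences was not tested.

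Markers of other cell types differed between the labels to unlike degrees, beside a share of 34.2% of all tested probes that passed. All 8 oocyte markers were higher (summed signal 3.32 to 6.01 in control, 11.8 to 25.3 in PMSG arrays). Of 8 stroma and smooth muscle markers 3 were higher and 0 lower (140 to 170 against 161 to 191), near the share of the array. Of 6 leukocyte markers 4 were higher and 0 lower (6.99 to 8.72 against 11.1 to 12.6). Of 4 theca markers 3 were higher and 0 lower, but their summed signals overlapped (31.3 to 40.3 against 23.7 to 48.5). Of 6 endothelial markers 0 were higher and 3 lower (19.9 to 23.3 against 15.4 to 17.1). The part of these in the differences above was not tested.

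**Figure D3:**
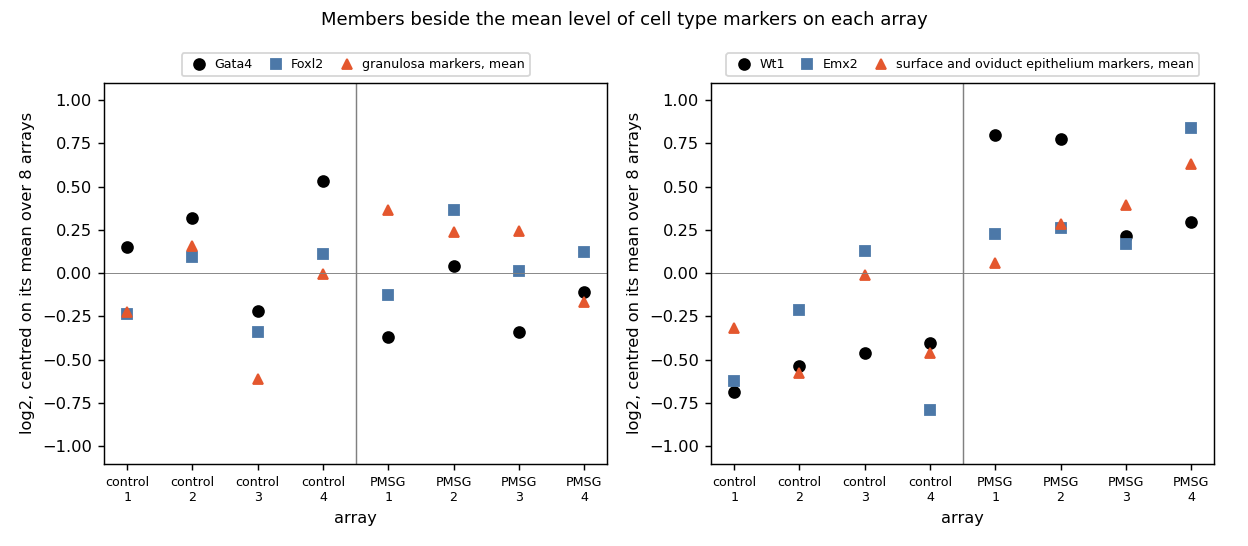
Level of brightest probes on each array, centred on the mean over 8 arrays (log2), beside the mean of granulosa markers (left) and of surface and oviduct epithelium markers (right). On the left, Gata4, Foxl2 and the granulosa mean are at their lowest control value on array 3, and on the right Emx2 and the epithelial mean are highest on control array 3 and PMSG array 4.

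Genes related to these factors were taken from 5 lists, 63 of whose 70 genes could be tested. The lists held partner factors, testis-side genes, ovary-side genes, target genes and relatives of the same protein families. Of these 19 were higher and 10 lower (46.0% past the threshold, against 34.2% of all tested probes). The lists were chosen with earlier results of these data known and read 1 brightest probe per gene. The shares were therefore not tested against each other. Among 10 tested partner factors 3 were higher and 0 lower, with a median log2 difference of 0.26. They were Nr0b1, an orphan nuclear receptor that opposes steroidogenic factor 1, at 1.64 (SE 0.17, limma adjusted p = 3.63e-04), Six4, a homeobox gene of the early gonad, at 1.45 (SE 0.19, limma adjusted p = 7.68e-04), and Cbx2, a Polycomb protein, at 1.31 (SE 0.15, limma adjusted p = 4.66e-04). Nr5a1, which encodes steroidogenic factor 1 itself, was at -0.36 (limma adjusted p = 0.260). The GATA cofactor genes Zfpm1 and Zfpm2 had differences of 0.32 and 0.46 and fell short (limma adjusted p = 0.0695 and 0.0547).

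Genes of the ovary side moved in both directions. Of 12 tested, 3 were higher and 4 lower, beside 34.2% of all tested probes that passed, with a median log2 difference of 0.13. Bmp2, a ligand expressed in the developing ovary, was highest in difference at 1.70 (SE 0.27, limma adjusted p = 0.00193), and Esr1, an estrogen receptor, followed at 1.28 (SE 0.21, limma adjusted p = 0.00250). Nr5a2, a nuclear receptor of granulosa cells, fell by 1.47 (SE 0.19, limma adjusted p = 7.70e-04). Fst, which encodes the activin-binding follistatin, and Runx1, a factor of the fetal granulosa lineage, each fell by 1.05 (limma adjusted p = 8.45e-04 and 9.10e-04). Wnt4 fell by 0.73 (limma adjusted p = 0.0193), and its partner signal Rspo1 was at 0.16 (limma adjusted p = 0.779). The sign of the Rspo1 difference rests on PMSG array 4, at -2.37. PMSG arrays 1 to 3 read -4.24, -4.07 and -4.24, below the control mean of -3.89.

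Of 12 tested genes of the testis side, 5 were higher and 0 lower, with a median log2 difference of 0.61. Over all tested probes 34.2% passed, 17.6% higher and 16.6% lower, so the share that passed lies near that of the array. Fgf9, a growth factor that promotes testis formation, was at -0.63 and fell short (limma adjusted p = 0.0573). With quantile normalization or median centring 4 were higher and 1 lower, as they were without control array 2, and 5 were higher and 1 lower where all 8 arrays had to be well above background. The 3 with the largest difference were Tesc, a calcium-binding protein of the developing testis, at 1.13 (limma adjusted p = 5.00e-04), Cldn11, a tight junction protein of Sertoli cells, at 0.94 (limma adjusted p = 0.00505), and Aard at 0.86 (limma adjusted p = 0.00964). The count fell to 3 without control array 3, PMSG array 1 or PMSG array 2, and rose to 8 without PMSG array 4.

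Genes known as targets of these factors did not share a direction. Of 12 tested, 2 were higher and 5 lower, beside 34.2% of all tested probes that passed, with a median log2 difference of -0.41. Amh, encoding anti-Mullerian hormone and a target of GATA4, WT1 and SOX9, was higher by 3.03, and Amhr2, its receptor gene and a WT1 target, by 1.71 (limma adjusted p = 2.61e-04 and 8.17e-04). Cyp11a1 and Star, genes of steroid synthesis known to be regulated by GATA factors and to respond to gonadotropin in the other direction, had log2 differences of -3.36 and -2.75 (limma adjusted p = 2.32e-04 and 0.00541).

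Among relatives of the same protein families, 17 were tested, 6 being higher and 1 lower, with a median log2 difference of 0.47. Their share past the threshold lies near the 34.2% of all tested probes. Gata3 was higher by 1.35 (limma adjusted p = 0.00537), but it was well above background on only 1 control array, so that its control mean rests mostly on background and the size of the difference is uncertain. Sox6 and Sox17 were higher by 1.01 and 0.96 (limma adjusted p = 0.0297 and 0.0272), and the 1 lower gene was Sox18, a factor of endothelial cells, which fell by 0.62 (limma adjusted p = 0.00397) and is named because of its value. The count of 7 was 4 with median centring and 11 without PMSG array 4.

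**Figure D4:**
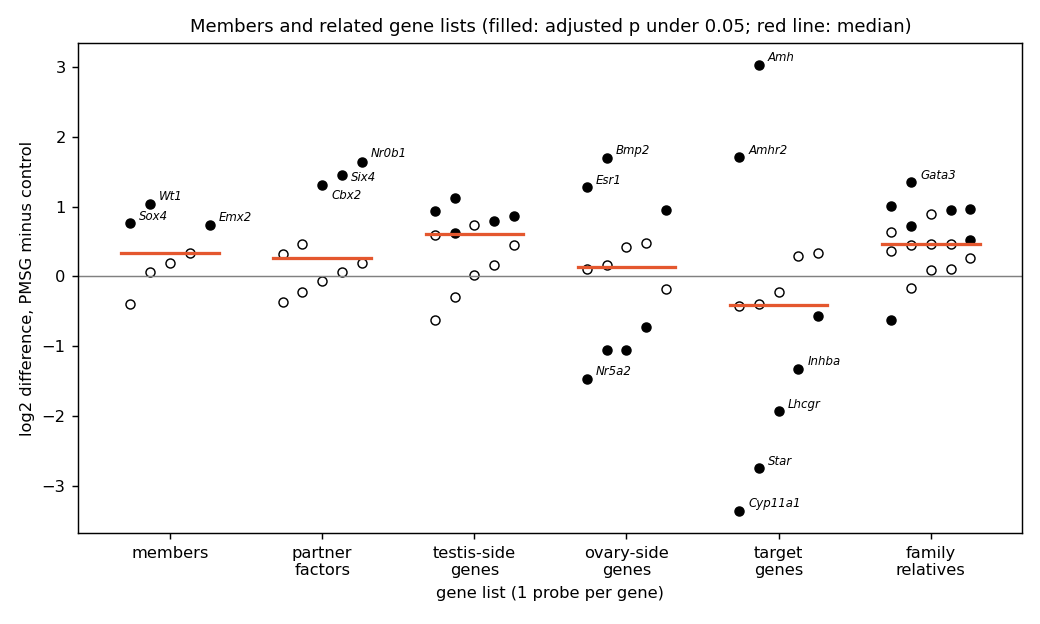
Log2 difference (PMSG minus control) of the tested genes of the set and of 5 related lists, 1 probe per gene, filled where the limma adjusted p is under 0.05, with each list's median in red. The medians run from -0.41 for target genes to 0.61 for testis-side genes.

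The genes whose pattern over the 8 arrays lay nearest to Wt1 probe 1 were Ntn4, Hrasls and Fam117b. After centring each probe on its own mean, their root mean square differences from Wt1 were 0.102, 0.117 and 0.119 on the log2 scale. Ntn4 read -5.20, -5.05, -5.09 and -5.16 on control arrays and -3.85, -4.00, -4.55 and -4.46 on PMSG arrays 1 to 4. Like Wt1, it was higher on PMSG arrays 1 and 2 than on arrays 3 and 4. These 3 genes were picked for their likeness over the same arrays, so their differences are no separate result.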

How the data were processed

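Ovary RNA of 8 samples was measured on 1 slide in 1 scan. The deposited scanner files hold the intensity of each spot, which Agilent Feature Extraction (11.5.1.1) had background-subtracted and detrended, per the file headers; dim spots carry surrogate values. In a table of log2 values that the authors deposited, each column tracked its own array best, at the scale used here and with probes not centred. That table had 0 columns left unused.

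Control and outlier spots were left out, log2 processed signals were averaged per probe, and each array's 75th percentile was subtracted. Of 30350 usable probes, the 25303 well above background (at least 0.5 of spots) on at least 4 of 8 arrays were tested with limma 3.58.1 in R 4.3.3 without covariates, with Benjamini-Hochberg adjustment over all of them and a threshold of 0.05. No spot was saturated. The procedure was checked on simulated data. A gene is represented by its brightest tested probe, and every probe of the 8 genes is given. Within-array differences were compared over the 70 splits of 8 arrays. In each list the 3 genes with the largest difference past the threshold are named, with others that bear on the set. The aromatase probe was recognised by its description, and Sox5 and Akr1c18 by RefSeq synonyms (GRCr8 assembly). Foxl1 and Hhip were not analysed here. The arrays' number limits the precision. Same-numbered arrays were not treated as pairs. The genes and lists were chosen with earlier results of these data known.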

Additional observations from a re-analysis of the deposited data

Results flagged for a closer look

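In 2 of 54 sets of 4 arrays, 1 array stood apart from the remaining 3, judged by the gap to the nearest array as a share of the group's range, where chance alone gives about 1 in 20 groups, here 2.7. Emx2 on PMSG array 4 had a gap of 0.867 of the range, at 2.62 against 1.95 to 2.04 on the other PMSG arrays. Without that array its log2 difference was 0.59 and the adjusted p (limma) was 0.0636, while its alternatives spanned 0.0193 to 0.132. Lhx9 probe 1 on control array 1 had a gap of 0.859, at -6.45 against -6.13 to -6.08, and that array was the 1 control array on which the probe was not well above background.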

How the results depend on the processing

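Wt1 (log2 differences from 0.67 to 1.14) and Sox4 (0.59 to 0.88) kept direction and call under all 17 alternatives tried, and the count of differing genes of the set stayed between 2 and 4, against 3. Foxl2 (0.02 to 0.27) and Gata6 (-0.15 to 0.25) passed under none of 17. Emx2, at 0.74, was no longer past the threshold with median centring (0.58), with no filter on dim probes (0.74, limma adjusted p = 0.0536) or without any 1 of 7 of the 8 arrays. Over all 8 such fits it ran from 0.59 to 0.91, the highest being the one that passed, without control array 3. Gata4, at -0.39, passed under 1 alternative, without control array 3, and ran from -0.53 to -0.28 with 1 array left out. Lhx9 passed with the mean of its probes (0.83). Normexp background correction gave within-array shifts of -0.50 for Gata4 to Gata6 and 0.84 for Wt1 to Lhx9, both at the smallest exact p, while these ran from -0.59 to -0.36 and from 0.60 to 0.92 with 1 array left out. With Lhx9 probe 2, chosen after seeing the data, the latter turned to -0.28. The count of differing probes ran from 6552 to 11382 (without PMSG array 4), that of testis-side genes from 3 to 8 and that of family relatives from 5 to 11, or 4 with median centring. Signal near background limits Lhx9, which had no value when all 8 arrays had to be well above background, and Dmrt1, which like Sox9 had none under any setting.

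With the replicate block Emx2 had an adjusted p of 0.0969 at 0.74, Wt1 0.0146 and Sox4 0.0136, and 7346 probes differed. The block changed no other call of the set. Deviations of same-numbered arrays correlated across probes at 0.0444, 0.0361, 0.183 and -0.0192, so the numbers do not pair the arrays, and 1 of 4 control arrays correlated best with its own number. A block for the array's row on the slide kept the calls of Wt1, Emx2 and Sox4. Blocks for slide or scan time were not run, as there was 1 of each.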
